A study of Vitis vinifera with 12 samples.

Results

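In young leaves of the grape (Vitis vinifera) cultivar Dilkhush, 195 of 24905 gene rows of the leaf table stood at least 4-fold apart, in the same direction, from both other cultivars sequenced, Bangalore blue and Red globe. Of these rows 97 were higher in Dilkhush and 98 were lower. A row was taken where the 4-fold limit was met on the RPKM + 1 scale (RPKM is reads scaled by transcript length and by the mapped reads of the column) against each of the other leaves, with at least 10 RPKM in the higher leaf of each pair. Rows of transfer RNA names were left out. The values of the leaf columns chose these rows, so their leaf differences are given as a description.

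The study sequenced messenger RNA of young leaves and fruit peels from the 3 cultivars, which the series describes by their varying anthocyanin, the red to blue flavonoid pigment of grapes. The labels give 2 libraries for each cultivar and tissue, 12 libraries in 6 groups, and name no treatment, plant age, growth stage or number of plants. The deposited tables hold 1 column for each cultivar and tissue, so each value is the authors' value for a cultivar. There is no replicate error, no difference was tested and no p-value is given. Sequencing depth is unknown, and where the table has a 0 the text says only that the row was listed at 0. Values of a row are given in the order Bangalore blue, Red globe, Dilkhush unless cultivars are named.

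Young grape leaves carry out photosynthesis and also hold inducible programmes for pathogens, cold and water shortage. Pathogenesis-related (PR) proteins accumulate in plant tissue after infection. The hormone abscisic acid is made from cleaved carotenoids and raises the transcripts of many protective genes when water is short. C-repeat binding factors (CBF) are transcription factors that switch on genes of cold and drought tolerance.

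The 5 leaf markers, all present in every leaf column, summed to 2858, 1451 and 2793 RPKM. PSBP1, a subunit of the oxygen-evolving complex of photosystem II, stood at 2084, 494 and 1758 RPKM and CHLH, a subunit of magnesium chelatase in chlorophyll synthesis, at 597, 138 and 629. PSBP2 stood at 74.7, 54.4 and 95.1 RPKM and NDHM at 56.8, 13.6 and 32.0 RPKM, while THI1-2 went the other way at 46.0, 751 and 279 RPKM. Red globe was the lowest leaf for 4 of the 5 markers and the highest for THI1-2, and the part of this gap in the differences from Red globe was not tested. The flower marker AG stood at 10.07, 10.81 and 4.84 RPKM and AP1 at 0.27, 6.50 and 0.40, which summed to between 5.25 and 17.3 RPKM per leaf. The 9 ripening-berry GRIP genes summed to between 397 and 654 RPKM per leaf. They differed widely in leaf, with GRIP22 at 3.10 to 5.22 RPKM and GRIP28 at 209 to 428 RPKM. In peel, whose values are not on a shared scale with leaf, GRIP22 stood at 1944 to 11936 RPKM. GRIP55 stood at 76.9, 24.0 and 27.4 RPKM in leaf and at 50.8, 35.2 and 35.1 RPKM in peel. Seed markers were not analysed here.

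Against this background the rows apart in Dilkhush were a small share of the table. Of the 12057 rows with at least 10 RPKM in a leaf column, 0.805% were higher in Dilkhush than in both other leaves and 0.813% were lower, 1.62% in either direction. The same limits set 146 rows (1.21%) higher and 26 rows (0.216%) lower in Bangalore blue leaf. They set 120 rows (0.995%) higher and 116 rows (0.962%) lower in Red globe leaf. Dilkhush leaf was thus the leaf with the fewest rows higher than both others, while Red globe leaf had the most rows lower.

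Pair by pair, Dilkhush stood closer to Bangalore blue than to Red globe. The median size of the log2(RPKM + 1) difference over the 12057 rows was 0.267 between Dilkhush and Bangalore blue, 0.444 between Dilkhush and Red globe and 0.473 between Bangalore blue and Red globe. Between Bangalore blue and Red globe leaf, 3.0% of rows were higher and 2.01% lower in Bangalore blue. In the comparisons with Dilkhush 1.37% of rows were higher and 2.42% lower in Dilkhush than in Bangalore blue, and 2.3% were higher and 2.8% lower than in Red globe. The median differences were 0.03 from Bangalore blue and -0.03 from Red globe.

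**Figure D1:**
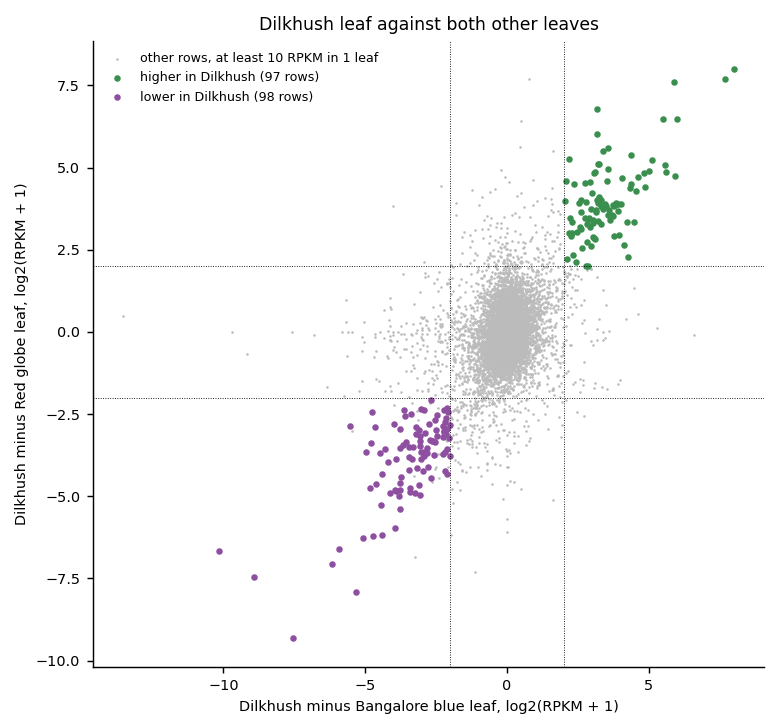
Difference of Dilkhush from Bangalore blue leaf (x axis) and from Red globe leaf (y axis), both in log2(RPKM + 1), for the 12057 leaf rows with at least 10 RPKM in a column. Dotted lines mark the 4-fold limits. The 97 rows higher in Dilkhush lie in the upper right corner, and the lower left corner holds 120 rows, of which the 98 coloured ones had at least 10 RPKM in both other leaves. Each axis holds the Dilkhush column, so the slant of the cloud is shared by construction.

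Genes with a symbol made up 8 of the 195 rows, 4 each way, because few rows of the table carry a symbol (1.97% of the 12057). Among the rows higher in Dilkhush was PR10.4, a member of the PR-10 family of intracellular pathogenesis-related proteins. It was listed at 0 in Bangalore blue, beside 0.37 RPKM in the Red globe leaf and 27.9 RPKM in the Dilkhush leaf, a log2(RPKM + 1) difference of 4.40 from Red globe. CYP716A15, a cytochrome P450 that oxidises the triterpene beta-amyrin, stood at 3.50, 7.09 and 60.1 RPKM in Bangalore blue, Red globe and Dilkhush leaf. That is a difference of 3.76 from Bangalore blue and of 2.92 from Red globe on the same scale.

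GFH2, whose role is not described here, stood at 21.2, 25.8 and 117 RPKM in the 3 leaves. It differed by 2.41 and 2.14 on the log2(RPKM + 1) scale. IFRL3, an isoflavone reductase-like gene, stood at 0.86, 2.29 and 12.3 RPKM and lay next to the limit, with differences of 2.84 from Bangalore blue and 2.02 from Red globe. For all 4 genes the Dilkhush leaf was the high one.

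Among the rows lower in Dilkhush were a gene of abscisic acid synthesis and a gene of cold response. NCED1, the 9-cis-epoxycarotenoid dioxygenase that catalyses a rate-limiting step of abscisic acid synthesis, stood at 65.3, 12.4 and 1.46 RPKM in the 3 leaves. The log2(RPKM + 1) difference was -4.75 from Bangalore blue and -2.44 from Red globe. CBF4, a C-repeat binding factor, stood at 16.2, 26.3 and 0.28 RPKM, differences of -3.75 and -4.42. Dilkhush was the lowest of the 3 leaves for NCED1 and CBF4, while the order of the other leaves was opposite. NCED2 was not apart from both others, at 12.3, 4.76 and 3.45 RPKM, differences of -1.57 and -0.37.

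The other 2 named rows lower in Dilkhush were BAP1 and SIUP1. BAP1, named from a synonym in the RefSeq gene table, stood at 30.4, 55.5 and 3.12 RPKM, differences of -2.93 and -3.78 on the log2(RPKM + 1) scale. SIUP1 stood at 55.9, 99.7 and 12.1 RPKM, with differences of -2.12 and -2.95. In both, Red globe held the highest value and Dilkhush the lowest.

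**Figure D2:**
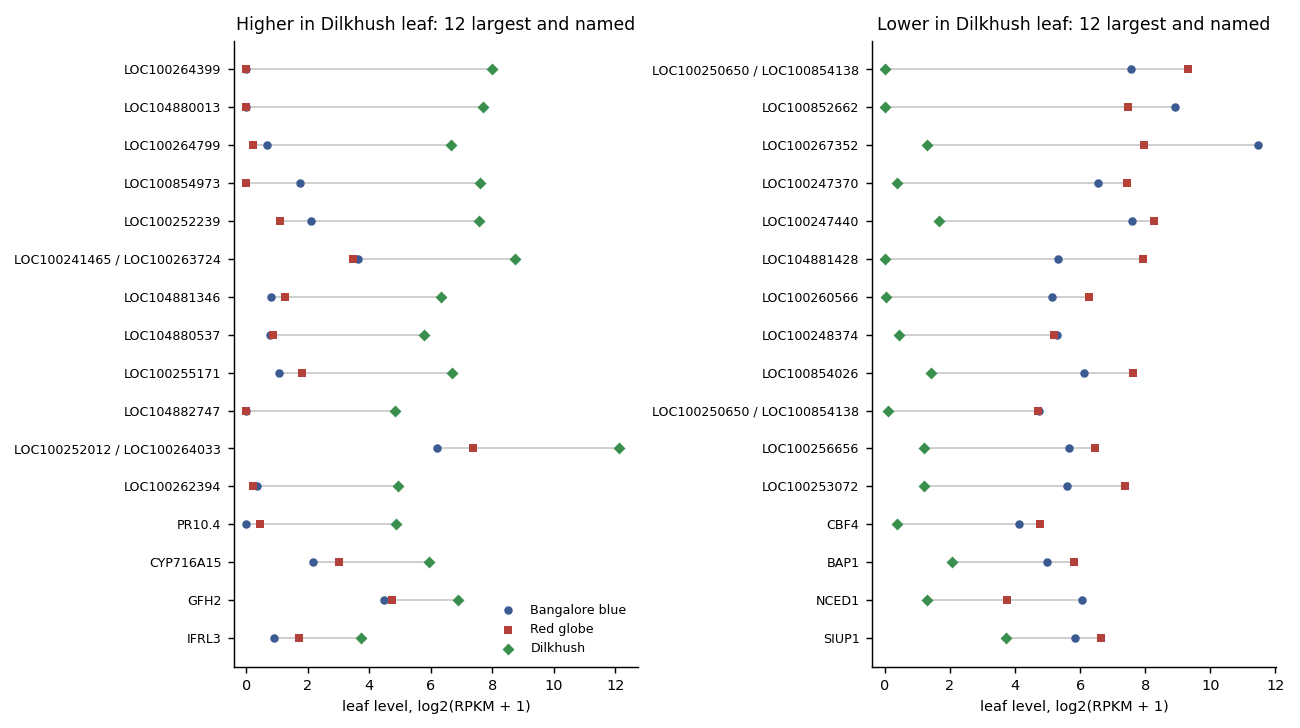
Leaf level in log2(RPKM + 1) of the 12 rows each way with the largest smaller difference from the other leaves, and of the named rows, with 1 point for each cultivar. Green diamonds (Dilkhush) lie to the right of both other points in the left panel and to the left of both in the right panel, as the choice of rows requires.

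Other pathogenesis-related genes were also high in Dilkhush leaf, without reaching the limit against both others. PR-1, the classic extracellular marker of salicylic acid responses in plants, stood at 363, 320 and 1272 RPKM in the 3 leaves, differences of 1.81 and 1.99 in log2(RPKM + 1). PR10.3 stood at 8.34, 16.7 and 64.7 RPKM, 2.81 and 1.89 apart, and PR10.7 at 101, 136 and 444 RPKM, 2.13 and 1.70 apart. PR10.9 was over the fold limit, at 0.25, 0.53 and 9.22 RPKM, but under the floor of 10 RPKM. Dilkhush was the highest of the 3 leaves for all of these.

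Over the whole pathogenesis-related list 13 of 14 rows reached 1 RPKM in a leaf. Of the 13, 7 were above both other leaves and 3 below both in Dilkhush, by any size. Of all 18968 leaf rows at that level, 5861 were above both and 5297 below both. With the call limits 3 list rows were higher and 2 lower in Dilkhush than in Bangalore blue, and 2 were higher and 0 lower than in Red globe. The shares of all rows for these calls were 1.37% and 2.42% against Bangalore blue and 2.3% and 2.8% against Red globe. The list's median log2(RPKM + 1) difference was 0.70 from Bangalore blue and 1.20 from Red globe, beside 0.04 and -0.02 over all 18968 rows. Among the rows that ran otherwise were chitinases, enzymes that cut fungal cell wall chitin: the class IV chitinase CHI4D stood at 164, 30.8 and 22.6 RPKM and chit1a at 153, 19.4 and 21.3 RPKM, high in Bangalore blue and similar in the other two leaves. Most defence genes have no symbol here and were not counted, and near copies of the PR-10 family may share reads.

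The dehydration, cold and abscisic acid list ran mostly the other way. Of its 9 rows 7 reached 1 RPKM in a leaf, of which 5 were below both other leaves and 1 was above both in Dilkhush. With the call limits 4 were lower than in Bangalore blue and 2 lower than in Red globe, and 0 were higher in either comparison. Over all rows at 10 RPKM 2.42% were lower than in Bangalore blue and 2.8% lower than in Red globe, and over all rows at 1 RPKM 27.9% were below and 30.9% above both. The list's median difference was -3.27 from Bangalore blue and -0.73 from Red globe, beside 0.04 and -0.02 over all rows. The dehydrin DHN1 stood at 72.0, 1.43 and 0.46 RPKM and CCD4b at 19.9, 0.20 and 1.17 RPKM, so that Bangalore blue was the leaf that stood apart. Both are among the 4 rows lower than in Bangalore blue, and CCD4b was higher in Dilkhush than in Red globe. The median of -3.27 is the difference of CCD4b and the median of -0.73 that of DHN1. The dehydration-responsive RD22-C stood at 181, 297 and 86.8 RPKM, lower in Dilkhush without reaching the limit. CCD1, a carotenoid cleavage dioxygenase, went against the list at 130, 78.2 and 148 RPKM.

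**Figure D3:**
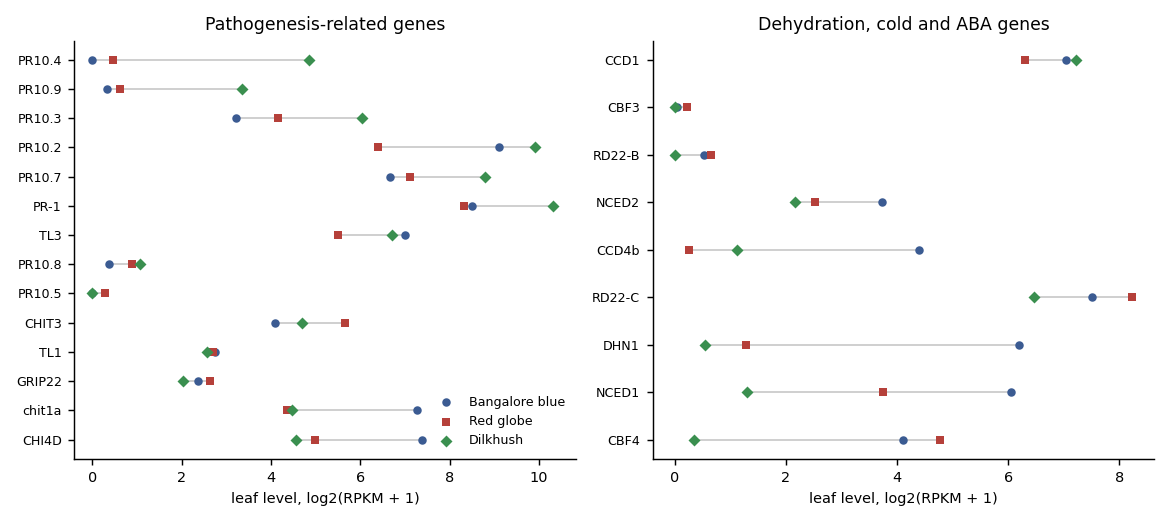
Leaf levels in log2(RPKM + 1) of the rows of the pathogenesis-related list (left) and of the dehydration, cold and abscisic acid (ABA) list (right), with 1 point for each cultivar. Rows are ordered by the sum of the 2 differences of Dilkhush from the other leaves, with PR10.4 (27.9 RPKM in Dilkhush) at the top of the left panel and CBF4 (0.28 RPKM in Dilkhush) at the bottom of the right one.

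The lists of anthocyanin genes are short, and with 1.62% of all rows apart from both other leaves a count of 0 in them is near the background and is no result about these genes. None of the 9 rows of the anthocyanin list, of the 7 rows for its MYB, bHLH and WD-repeat activators or of the 4 rows for flavonoid MYB repressors was 4-fold apart from both other leaves in the same direction. DFR, dihydroflavonol reductase, stood at 320, 233 and 302 RPKM in Bangalore blue, Red globe and Dilkhush. LDOX, leucoanthocyanidin dioxygenase, stood at 927, 686 and 881 RPKM. The glutathione S-transferase GST4, which anthocyanins need to reach the vacuole, stood at 2.58, 162 and 53.2 RPKM and so was higher than in Bangalore blue, by 3.92 in log2(RPKM + 1), and lower than in Red globe, by -1.59. The photosynthesis, sugar, aquaporin, early flavonoid and proanthocyanidin lists, of 3 to 10 rows each, also held 0 rows apart from both. This is likewise near the 1.62% of all rows. The stilbene list had 0 of its 4 rows at 10 RPKM in a leaf, so the floor alone kept its rows from being called. By any size, 3 of these 4 rows were above both other leaves in Dilkhush and 1 was below both.

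A few named rows of other lists came near the limit. FLS1, flavonol synthase, which makes the flavonols that screen leaves from ultraviolet light, stood at 105, 252 and 26.1 RPKM, differences of -1.97 and -3.22. NIN1, a neutral invertase, stood at 49.2, 80.0 and 15.9 RPKM. The mildew-locus (MLO) genes are of the family in which loss of some members gives powdery mildew resistance. MLO11 was highest in Dilkhush, at 3.07, 1.47 and 13.5 RPKM. MLO3, whose row also carries the synonym MLO6, was lowest there, at 6.397, 13.1 and 0.89 RPKM. MLO15 was also lowest in Dilkhush, at 32.3, 76.1 and 18.4 RPKM. So were the rows named MLO6, at 55.9, 39.3 and 36.4 RPKM and at 263, 205 and 79.7 RPKM. The lipoxygenase LOXO, of the family that oxidises polyunsaturated fatty acids, stood at 53.1, 121 and 20.8 RPKM, lowest in Dilkhush.

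Near the limit, the 3 rows just inside it among those higher in Dilkhush were LOC100250205 (smaller difference 2.003), IFRL3 (2.02) and LOC100258661 (2.04). Just outside lay LOC100251075/LOC104880264/LOC104880266 (1.995), LOC100263070/LOC104881503 (1.97) and LOC100267425/LOC104882232 (1.93). Among those lower, LOC100257064 (-2.02), LOC100264200 (-2.03) and LOC104879680 (-2.06) lay just inside, and LOC100243983 (-1.99), LOC100253828 (-1.98) and FLS1 (-1.97) just outside. Both sides of the limit thus were separated by hundredths of a log2 unit.

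Most rows apart in Dilkhush carry only a LOC number, and no description was paired with it. For the 97 higher rows the median was 27.9 RPKM in Dilkhush, with a range from 10.23 to 4484, while the medians of Bangalore blue and Red globe were 1.76 and 0.83 RPKM. In 27 of the 97 both other leaves were under 1 RPKM, and in 5 both were listed at 0. The smaller of the 2 differences had a median of 3.18 on the log2(RPKM + 1) scale, reached 3 in 57 rows and 5 in 7.

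The most abundant higher row was LOC100252012/LOC100264033, at 73.3 and 165 RPKM in the other leaves and 4484 in Dilkhush, where it ranked 9 of all rows. LOC100241465/LOC100263724 stood at 11.3, 10.18 and 423 RPKM. LOC100264399 was listed at 0 in both other leaves and at 254 RPKM in Dilkhush, and a second row of that name stood at 1.06, 0.31 and 32.8 RPKM. LOC104880013 was also listed at 0 in both other leaves, with 205 RPKM in Dilkhush. Dilkhush was the high leaf in each, and the first 2 rows carry 2 gene names each, whose reads these rows do not separate. A further row of LOC100252012 alone stood at 0.55, 0.44 and 0.12 RPKM. A row of LOC100264033 alone stood at 0.12, 0 and 0.034 RPKM, so neither was high in Dilkhush.

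Further rows with the largest differences were LOC100264799 at 0.60, 0.15 and 101 RPKM, LOC100252239 at 3.26, 1.15 and 189 RPKM and LOC100255171 at 1.08, 2.51 and 101 RPKM. LOC100854973, a pseudogene in the RefSeq table, stood at 2.32, 0 and 193 RPKM. Further rows of that name, at 0, 0 and 0.11 RPKM and at 0.14, 0 and 4.09 RPKM, were under the floor. LOC104881346 at 0.73, 1.39 and 80.2 RPKM, LOC104880537 at 0.72, 0.83 and 53.7 RPKM and LOC100262394 at 0.27, 0.17 and 29.7 RPKM were low in both other leaves, and LOC104882747 was listed at 0 in both, with 27.5 RPKM in Dilkhush.

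The 98 lower rows had a median of 42.5 RPKM in the Bangalore blue leaf, 58.5 in the Red globe leaf and 2.74 in the Dilkhush leaf. Dilkhush was under 1 RPKM in 22 of them and listed at 0 in 6. The smaller difference had a median size of 2.97 in log2(RPKM + 1), reached 3 in 48 rows and 5 in 7. Red globe was at least 100 RPKM in 27 of these rows and Bangalore blue in 17.

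LOC100250650/LOC100854138 stood at 187 and 635 RPKM in the other leaves and was listed at 0 in Dilkhush, and a second row of the same names stood at 25.4, 25.2 and 0.064 RPKM. LOC100852662 stood at 486 and 176 RPKM and was listed at 0 in Dilkhush, but a second row of that name stood at 0.42, 0.49 and 0.44 RPKM, alike in the 3 leaves. The pseudogene LOC100267352 stood at 2808.5, 247 and 1.44 RPKM, with a second row at 24.5, 11.1 and 12.4 RPKM. Such pairs show that 1 name can hold a row that stands apart and a row that does not. Among the 195 rows, 19 names shared an identifier with another row, and 0 of these with a row apart in the other direction. With 0.805% of all rows higher and 0.813% lower, 0 of 19 is near that background.

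The remaining rows with the largest deficits were LOC100247370 at 92.2, 173 and 0.30 RPKM, LOC100247440 at 193, 308 and 2.18 RPKM, LOC100260566 at 33.9, 77.1 and 0.021 RPKM and LOC100248374 at 37.8, 35.5 and 0.35 RPKM. LOC100854026 stood at 69.1, 197 and 1.67 RPKM, LOC100256656 at 49.2, 87.3 and 1.29 RPKM, and LOC100253072 at 47.1, 164 and 1.28 RPKM. In 6 of these 7 rows Red globe held the highest value, as it did for most lower rows.

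The order of the other two leaves differed between the directions. Among higher rows Bangalore blue was above Red globe in 63, or 64.9%, and below it in 29. Among lower rows Red globe was above Bangalore blue in 70, or 71.4%, and below it in 28. Of all 12057 rows Bangalore blue was above Red globe in 47.7%. On the RPKM + 1 scale, Bangalore blue and Red globe lay within 2-fold of each other in 67 of the 97 higher rows and 63 of the 98 lower rows. The share of all rows was 80.4%. In 27 of the higher rows both leaves were under 1 RPKM, which places them within 2-fold on this scale by construction. The rule limits these levels, since a lower row needed 10 RPKM in both other leaves.

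The higher set also held more rows of several gene names, 19 of 97 or 19.6%, than the 4.24% of all 12057 rows, while the lower set held 6 of 98 or 6.12%. Names repeated on more than 1 row made up 8.25% of the higher set, 5.10% of the lower set and 2.32% of all. Of the single LOC numbers, 57 of 74 in the higher set and 76 of 89 in the lower set were protein coding in the RefSeq table. A further 12 of the 74 and 9 of the 89 were absent from it and have no biotype here. The share over all rows was not computed. There were 2 long non-coding RNAs in each set, 2 pseudogenes in the higher set and 1 in the lower. Without rows of several or repeated names, 70 higher rows and 89 lower rows were left.

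Rows higher in Dilkhush leaf often lay near one another in the gene order of the RefSeq table. Of 84 higher rows with a place there, 24 or 28.6% had another higher row within 5 genes either side, while 1.95% of other rows had a higher row that near. With only adjacent genes the shares were 13.1% and 0.353%. Of the 87 lower rows with a place, 8.05% had another lower row within 5 genes, beside 3.49% of other rows. Nearness was not particular to Dilkhush: in Red globe leaf 21.7% of its higher rows lay near another, and in Bangalore blue leaf 11.4%, beside 3.17% and 4.69% of other rows. Of the 24 placed rows lower in Bangalore blue leaf 29.2% lay near another, beside 0.720%. Rows sharing a gene name were not counted as neighbours of each other, but tandem copies can share reads, so neighbouring rows are not independent.

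The higher rows formed 2 runs of 4 rows, 2 of 3 and 5 of 2. These are counts of rows and not of distinct genes. LOC100264399 and LOC100855076 each entered with 2 rows, here and in the 24 rows with another near. The latter's run of 3 held its 2 rows and LOC100855151/LOC104881052. One run of 4 held LOC100245376 (14.1 RPKM in Dilkhush), LOC100259612 (15.4), LOC100854309 (30.7) and LOC100252559/LOC100854221/LOC100854759 (32.6), all under 4 RPKM in both other leaves. Another held both rows of LOC100264399, with LOC100265456 at 10.23 RPKM and LOC100259222/LOC100266893 at 51.0 RPKM in Dilkhush. A run of 3 held LOC100855129 at 3.24, 1.11 and 87.0 RPKM, LOC100854973 and LOC100257363 at 20.5, 5.97 and 163 RPKM in Bangalore blue, Red globe and Dilkhush. The lower rows formed 1 run of 3, of LOC100254616 at 28.5, 17.4 and 2.61 RPKM, LOC100249507 at 12.4, 53.6 and 1.93 RPKM and LOC100252757/LOC100263042 at 30.9, 75.3 and 3.09 RPKM, and 2 runs of 2.

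**Figure D4:**
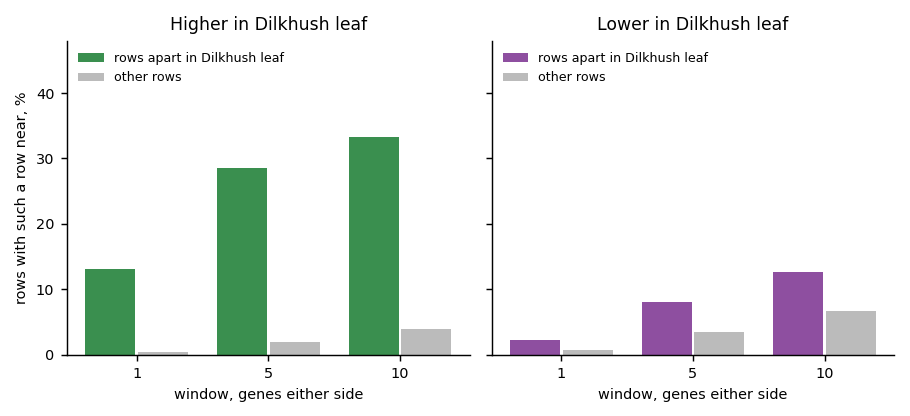
Share of rows, in percent, with a row higher (left) or lower (right) in Dilkhush leaf within 1, 5 or 10 genes either side in the RefSeq gene order, for the rows apart in Dilkhush leaf (coloured bars) and all other rows with at least 10 RPKM (grey bars). At 5 genes the higher rows reach 28.6% beside 1.95%, and the lower rows 8.05% beside 3.49%.

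The fruit peel columns, from other libraries of the same cultivars, were not used to choose the rows. Values of the 2 tables are not on a shared scale, and cultivars are compared within peel. Of the 97 higher rows 75 were matched by the whole row name, unrepeated in leaf and in peel, which could join several gene names. Of these, 62 reached 1 RPKM in a peel. Dilkhush peel was above both other peels in 29 of the 62, or 46.8%, and below both in 16, or 25.8%. Over all 15568 matched rows at that level the shares were 38.4% and 30.3%. With the 4-fold limits, 8 of the 32 rows at 10 RPKM in a peel were higher in Dilkhush peel than in both others, 25.0% beside 1.61% of all 9406 rows, and 1 was lower, 3.13% beside 0.542%.

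Of the 98 lower rows 88 were matched and 84 reached 1 RPKM in a peel. Dilkhush peel was below both others in 33 of the 84, or 39.3%, and above both in 24, or 28.6%. Of the 66 at 10 RPKM in a peel 3 were lower than both others with the 4-fold limits, 4.55% beside 0.542% of all rows. In the other direction 1 was higher, 1.52% beside 1.61% of all rows. The median peel difference of the 84 rows was 0.12 from Bangalore blue and -0.49 from Red globe in log2(RPKM + 1), while for the 62 higher rows it was 0.83 and 0.01. The difference between the 2 sets was not tested.

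The 8 rows higher in both tissues included GFH2 and LOC100852930. GFH2 stood at 12.8, 34.1 and 172 RPKM in the 3 peels. LOC100852930 stood at 22.1, 4.25 and 117 RPKM in leaf and at 0.59, 0.14 and 825 RPKM in peel. LOC104880946 was listed at 0 in both other cultivars in leaf and in peel, with 13.8 RPKM in Dilkhush leaf and 12.5 in Dilkhush peel. LOC100241465/LOC100263724, LOC104881346, LOC104880537, LOC100855129 and LOC104879495 were the rest, at 14.8 to 48.2 RPKM in Dilkhush peel and at most 5.45 RPKM in either other peel.

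The 3 rows lower in both tissues were LOC104881428, LOC104881978 and LOC100854200. LOC104881428 stood at 39.0 and 242 RPKM in the other leaves and was listed at 0 in Dilkhush leaf. In peel it stood at 78.4, 213 and 0.64 RPKM. LOC104881978 stood at 15.9, 29.3 and 0.078 RPKM in leaf and at 10.095, 13.8 and 0 in peel. LOC100854200 stood at 28.6, 10.23 and 0.072 RPKM in leaf and at 49.1, 20.2 and 0.13 RPKM in peel. Dilkhush was near 0 for all 3 in both tissues.

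Of the 8 rows with a symbol, GFH2 was the one that was also 4-fold apart from both others in peel. CYP716A15 at 48.3, 105 and 239 RPKM and IFRL3 at 0, 0.32 and 1.74 RPKM were highest in Dilkhush peel, as in leaf. SIUP1 at 82.0, 139 and 69.2 RPKM and CBF4 at 4.80, 3.93 and 3.59 RPKM were lowest in Dilkhush peel, as in leaf, by less than 4-fold. The CBF4 peel differences were small, at -0.34 and -0.10 in log2(RPKM + 1). For PR10.4 at 1.16, 3.81 and 1.73 RPKM and BAP1 at 4.30, 8.92 and 4.88 RPKM, Dilkhush lay between the other peels. NCED1, lowest in Dilkhush leaf, was highest in Dilkhush peel at 2.19, 5.69 and 5.97 RPKM, differences of 1.13 and 0.06. PR-1, just short of the limit in leaf, stood at 5.98, 0.71 and 670 RPKM in peel. LOC104880013, listed at 0 in both other leaves, stood at 0, 217 and 387 RPKM in peel, so it was present in Red globe peel.

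**Figure D5:**
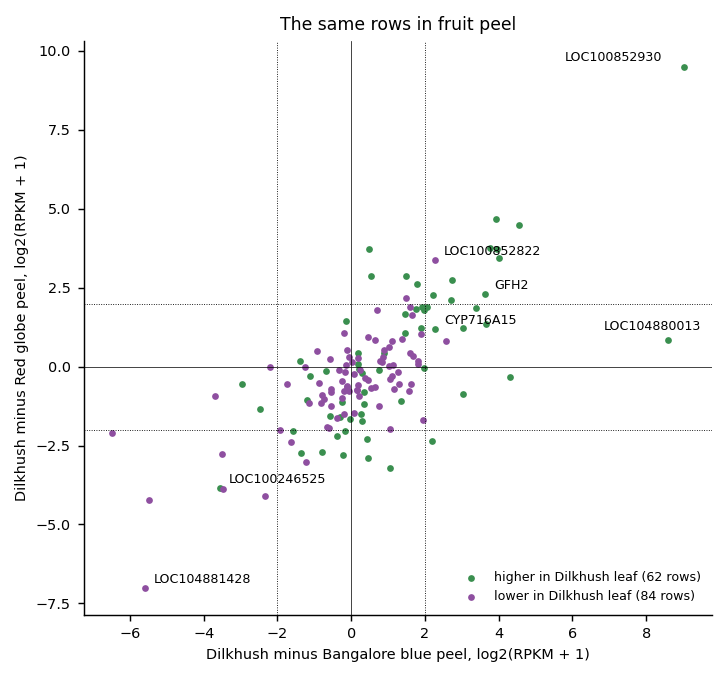
Difference of Dilkhush from Bangalore blue peel (x axis) and from Red globe peel (y axis), in log2(RPKM + 1), for the 62 higher (green) and 84 lower (purple) leaf rows that reached 1 RPKM in a peel. Dotted lines mark the 4-fold limits. LOC100852930, at 825 RPKM in Dilkhush peel, is farthest to the upper right, and LOC104881428, at 0.64 RPKM, farthest down, while most points lie near the centre.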

How the data were processed

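Per the labels' protocols, RNA came from RNeasy plant extractions and was made into strand-keeping mRNA libraries. TopHat2 2.1.1 and Cufflinks 2.2.1 are named in the submitters' processing notes. For the genome build, the annotation and how 2 libraries became 1 column, the sources used here give nothing. The authors deposited RPKM, per the column headers. This unit scales reads to transcript length and to the reads of the column, so 1 very abundant gene lowers all others, and counting may split or share the reads of near copies. No whole-read steps were seen in low values, so depth is unknown and no counting interval is given.

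Columns were tied to groups by initials in the sample titles. Of the 25253 leaf rows, 348 with transfer RNA names were left out. Differences were taken on log2(RPKM + 1), which understates low genes. A lower row needed 10 RPKM in both other leaves. The rows, the 29 gene lists (21 matched a row, by symbol or synonym) and the alternatives were chosen with earlier results of these data known. Named genes were rows apart with a symbol, the 12 largest each way, list rows with a symbol and at least 10 RPKM in a leaf (of which a selection is printed), and 3 rows each side of the limits. PR10.9, GRIP22, GRIP28, GRIP55, AP1, MLO6 and the rows of runs and of both tissues were added after their values were seen. Of 25116 LOC numbers 22516 were in the RefSeq table for assembly GCF_030704535.1, used for symbols, biotypes and gene order only. Promoter motifs and sequences were not analysed here. Python 3.11.15, pandas 2.3.3 and numpy 2.4.6 were used, and the calling step was tested on simulated columns.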

Additional observations from a re-analysis of the deposited data

Results flagged for a closer look

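Of the rows apart in Dilkhush leaf, 2 stood at least 4-fold apart in Dilkhush peel in the opposite direction. LOC100246525 was 1 of the 32 higher rows at 10 RPKM in a peel, 3.13% beside 0.542% of all 9406 rows. LOC100852822 was 1 of the 66 lower rows at that level, 1.52% beside 1.61%, which is near the share of all rows. The difference between the tissues was not tested, since each cultivar has 1 value in each. LOC100246525 stood at 1.81, 1.65 and 11.3 RPKM in Bangalore blue, Red globe and Dilkhush leaf, and at 14.6, 18.0 and 0.33 RPKM in peel. Its smaller log2(RPKM + 1) difference was 2.13 in leaf and -3.56 in peel. LOC100852822 stood at 124, 143 and 28.1 RPKM in leaf and at 26.1, 11.6 and 129 RPKM in peel. Its smaller difference was -2.11 in leaf and 2.26 in peel.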

How the results depend on the processing

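The 97 higher rows became 158 with no floor on low values, 24 with at least 5 RPKM in 2 of the 3 leaves, which removes rows that are low in both other leaves, and 57 with a limit of 8-fold. The 98 lower rows became 48 with a limit of 8-fold. A pseudocount of 0.1, quantile normalization, scaling to equal medians or to equal totals without transfer RNA, and leaving out rows of several or repeated names gave 70 to 108 higher and 89 to 113 lower rows. With no floor there were 130 lower rows. At least 5 RPKM in 2 leaves left 98, as the rule requires, since a lower row already needed 10 RPKM in both other leaves. Of 32 named rows, the pseudocount moved the size of 19. A pseudocount cannot change a direction, and these rows were chosen as at least 4-fold apart. That 0 of them changed direction under the scalings and the pseudocount was therefore set by the choice of rows. An alternative chosen after seeing the data, 10 RPKM in either other leaf, gave 120 lower rows. IFRL3 fell under the limit with equal medians and with equal totals. The peel counts of 29 and 33 stayed between 28 and 35 under the 2 alternatives run. No paired analysis was possible because each cultivar and tissue has 1 column, and no library could be left out for the same reason. With depth unknown, values near 0 cannot be told from no expression.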
